A study of Mus musculus with 10 samples.

Results

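The adrenergic receptors were examined in single-nucleus RNA sequencing of the mouse paraventricular thalamus. Members were chosen by symbol, as *Adra1a*, *Adra1b*, *Adra1d*, *Adra2a*, *Adra2c* and *Adrb1*, which are 6 of the 9 adrenergic receptor genes among the 33502 gene symbols of the deposited matrix. Their unique molecular identifiers (UMIs, each standing for 1 captured RNA molecule) were summed per library over the nuclei of each deposited cell type, and over neurons split by the regional markers *C1ql3*, *Adarb2*, *Gad2* and *Nwd2*. All mice were C57BL/6J and aged 12 weeks, and the methods describe 4 biological replicates, each of tissue pooled from 4 mice, without stating the pooling of the female libraries. There were 4 libraries titled biol rep, whose titles give no sex and which the deposited metadata mark as male, and 6 titled female biol rep. The tissue was taken as punches, so nuclei of neighbouring mediodorsal thalamus, habenula and stria terminalis were captured beside those of the paraventricular thalamus.

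Adrenergic receptors are the G protein-coupled receptors through which noradrenaline, released in the thalamus mainly by axons of the locus coeruleus, and adrenaline act on cells. The alpha-1 receptors (*Adra1a*, *Adra1b*, *Adra1d*) couple to Gq, phospholipase C and calcium release, the alpha-2 receptors (*Adra2a*, *Adra2c*) couple to Gi, lower cyclic AMP and can open potassium channels, and the beta receptors (*Adrb1*) couple to Gs and raise cyclic AMP. Both neurons and astrocytes are known to respond to noradrenaline, astrocytes largely through alpha-1 receptors and calcium.

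The matrix held 20503 nuclei in 16 deposited clusters that group into 8 cell types, of which 10410 were neurons and 5302 astrocytes. The biol rep libraries held 875 to 7213 nuclei and 7568267 to 55956635 UMIs, and the female libraries 1049 to 1615 nuclei and 5119927 to 12891409 UMIs. The median neuron had 11157 UMIs and the median astrocyte 3006.5. In each cell type the summed level of its own marker list was the highest of the 8 types, for instance 3328 CPM (UMIs scaled to library size) for *Rbfox3*, *Snap25* and *Syt1* in neurons and 7093 CPM for *Agt*, *Aqp4*, *Gja1* and *Slc1a3* in astrocytes. The study assigned the cell types from marker genes that include some of these, such as *Rbfox3* and *Agt*, so this order describes the labels. Of the 20457 distinct barcodes, 46 occurred in more than 1 library.

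The 6 receptors were unevenly captured. *Adra1b* had 8405 UMIs in all, *Adra1a* 2585, *Adrb1* 2111, *Adra2a* 494, *Adra2c* 168 and *Adra1d* 17. Every library held a UMI of each receptor except female replicate 1, which held 5 of the 6. Levels of different receptors were not ranked against each other, because the counts were not corrected for length and nuclear RNA includes introns. In the GRCm38 (mm10) annotation of GENCODE, *Adra1b* (chr11:43774606-43901210, minus strand) is 97.3% intronic and *Adra1a* (chr14:66635251-66771168, plus strand) is 93.6% intronic, as are 88.4% of *Adra1d* (chr2:131545850-131562283, minus strand) and 69.0% of *Adrb1* (chr19:56722199-56733113, plus strand). *Adra2a* (chr19:54044151-54048982, plus strand) and *Adra2c* (chr5:35278319-35281763, plus strand) hold no intronic base in that annotation.

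The first question was in which cell types each receptor was found, and whether neurons and astrocytes differed. With neurons taken as a whole, *Adra1b* was higher in them than in astrocytes, and *Adra1a*, *Adra2a* and *Adrb1* were higher in astrocytes. Of the 5 receptors that passed the filter on low counts, 1 was called higher in neurons and 3 lower, where 33.6% of the 18150 genes tested were called higher and 26.8% lower, 60.4% in all. A call meant an adjusted p under 0.05 in edgeR's quasi-likelihood test with library as block and a log2 fold change beyond 0.5 in size. These p-values rest on the spread left between libraries after differences shared by the cell types of a library were removed. That spread was taken over all cell types in the fit, not over neurons and astrocytes alone. The tests describe clusters that were themselves made from the expression of these nuclei.

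*Adra1a* was highest in astrocytes and oligodendrocyte precursor cells (OPCs). In astrocytes its lowest, median and highest library were at 47.3, 85.4 and 152 CPM, with a mean of 89.7 CPM ± 30.3 (SD, n = 10). In neurons they were at 7.14, 9.60 and 12.0 CPM, with a mean of 9.30 CPM ± 1.65 (SD, n = 10), so the ranges did not overlap and astrocytes were higher in 10 of 10 libraries. The neuron level was 9.81-fold lower, a log2 fold change of -3.29 with an SE of 0.15 (edgeR, adjusted p = 1.6e-33), and it was -3.73 within the biol rep libraries and -2.96 within the female libraries.

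OPCs, the dividing precursors of myelinating oligodendrocytes, carried *Adra1a* at 42.8, 60.6 and 96.6 CPM in their lowest, median and highest library, a mean of 69.4 CPM ± 21.6 (SD, n = 9), while mature oligodendrocytes held 3.75 CPM ± 2.95 (SD, n = 10). Fibroblasts followed at 23.1 CPM ± 14.2 (SD, n = 8) and ependymal cells, which line the ventricle, at 17.1 CPM ± 10.8 (SD, n = 9). *Adra1a* was called higher than the mean of the other types on the log2 scale in astrocytes, by 3.15 with an SE of 0.15 (edgeR, adjusted p = 4.4e-32), where 24.4% of all genes were called higher, and in OPCs, by 2.74 with an SE of 0.22 (adjusted p = 1.5e-18), where 14.9% were. Astrocytes and OPCs, the neighbours at the top of this order, could not be separated: astrocytes were higher in 6 of 9 libraries (exact two-sided sign-flip permutation test over libraries, p = 0.266, adjusted p = 0.788 over 42 neighbour pairs). OPCs exceeded fibroblasts in 8 of 8 libraries, at an exact p of 0.0078 that was 0.0820 after adjustment. With 42 pairs and at most 10 libraries no neighbouring cell types of any of the 6 receptors passed that adjustment, whose smallest value was 0.0820.

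*Adra1b* was highest in neurons. Its neuron libraries ranged from 56.3 to 93.0 CPM with a median of 80.4, a mean of 75.4 CPM ± 11.8 (SD, n = 10), and its astrocyte libraries from 3.15 to 18.8 CPM with a median of 9.74, a mean of 10.4 CPM ± 5.21 (SD, n = 10). No astrocyte library reached a neuron library, and neurons were 7.44-fold higher, a log2 fold change of 2.90 with an SE of 0.21 (edgeR, adjusted p = 2.9e-22). The difference was 2.51 within the biol rep libraries and 2.99 within the female libraries. The neuron value pools regional groups that differed, from a mean of 12.8 CPM in *Nwd2* to 87.3 CPM in *Adarb2* neurons, scaled within their own comparison.

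Free RNA can be captured in a droplet along with a nucleus, so the remaining *Adra1b* signal was set beside that of neuronal markers. The astrocyte level of *Adra1b* was 13.7% of its neuron level, against 5.97% for *Rbfox3*, 12.4% for *Snap25* and 6.87% for *Syt1*, and in oligodendrocytes it was 10.4%, against 11.5%, 16.04% and 11.2%. With each nucleus thinned to 2000 UMIs, an *Adra1b* UMI was found in 9.97% ± 1.88 (SD, n = 10) of neurons, 1.55% ± 1.06 of astrocytes and 0.992% ± 1.08 of oligodendrocytes, against 36.2% of neurons and 2.74% of astrocytes before thinning. Thinning left out 197 neurons, 994 astrocytes and 847 oligodendrocytes with fewer UMIs. The part of free RNA in the astrocyte level was not tested.

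OPCs held 30.7 CPM ± 10.2 (SD, n = 9) of *Adra1b* and fibroblasts 48.2 CPM ± 35.6 (SD, n = 8) from 28 UMIs, with 1 fibroblast library at 0. *Adra1b* was called higher than the mean of the other types in neurons, by 2.29 with an SE of 0.15 (edgeR, adjusted p = 3.3e-24), where 41.2% of all genes were, and in fibroblasts, by 1.24 with an SE of 0.41 (adjusted p = 0.0293), where 6.91% were. The fibroblast call rested on single libraries: the adjusted p was 0.0602 without biol rep replicate 2, 0.0555 without biol rep replicate 4 and 0.0930 without female replicate 4. The neuronal markers summed to 452 CPM in fibroblasts and 3328 CPM in neurons, and their part in this value was not tested. Neurons and fibroblasts, neighbours in this order, differed in the same direction in 6 of 8 libraries (exact permutation p = 0.0469, adjusted p = 0.383).

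*Adra1d*, the third alpha-1 receptor, was close to undetected. Of its 17 UMIs 16 fell in neurons, at 0.23 CPM ± 0.15 (SD, n = 10), and 1 in microglia. None was found in 5302 astrocytes, which allows a share of up to 0.0566% of astrocytes with a UMI, for counting error only. It did not pass the filter on low counts, and without that filter its log2 difference between neurons and astrocytes was not called (edgeR, adjusted p = 0.0596).

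*Adra2a*, an alpha-2 receptor that also serves as the inhibitory autoreceptor of noradrenaline neurons, was highest in astrocytes. Its astrocyte libraries ranged from 10.3 to 43.0 CPM with a median of 24.8, a mean of 25.1 CPM ± 10.4 (SD, n = 10), and its neuron libraries from 0.68 to 2.83 CPM with a median of 1.65, a mean of 1.75 CPM ± 0.61 (SD, n = 10). The ranges did not overlap. The neuron level was 12-fold lower, a log2 fold change of -3.58 with an SE of 0.23 (edgeR, adjusted p = 2e-24), and it was -3.23 within the biol rep and -3.86 within the female libraries. Thinned to 2000 UMIs, 4.70% of astrocytes and 0.409% of neurons held an *Adra2a* UMI, and 0.448% of oligodendrocytes did.

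*Adra2a* was called higher in astrocytes than the mean of the other types, by 3.13 with an SE of 0.25 (edgeR, adjusted p = 5.4e-19). Fibroblasts came next at 8.61 CPM from 5 UMIs, with 5 of 8 libraries at 0, and astrocytes exceeded them in 7 of 8 libraries (exact permutation p = 0.0547, adjusted p = 0.383). *Adra2c*, the other alpha-2 member, did not separate neurons from astrocytes: it lay at 1.48 CPM ± 0.71 (SD, n = 10) in neurons and 1.09 CPM ± 1.73 (SD, n = 10) in astrocytes, a log2 fold change of 0.12 with an SE of 0.43 and a 95% interval from -0.73 to 0.97 (edgeR, adjusted p = 0.819). *Adra2c* was called higher in ependymal cells than the mean of the other types, by 2.92 with an SE of 0.67 (edgeR, adjusted p = 0.00023). There 22.6% of all genes were called higher. The ependymal *Adra2c* level of 6.48 CPM ± 8.59 (SD, n = 9) came from 14 UMIs, and 4 of 9 libraries were at 0. It exceeded the mean of the other types in 4 of 9 libraries.

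*Adrb1*, the beta-1 receptor, was highest in microglia and astrocytes. Its microglia libraries ranged from 21.6 to 79.4 CPM with a median of 33.8, a mean of 41.3 CPM ± 19.9 (SD, n = 10), its astrocyte libraries from 17.8 to 59.8 CPM with a median of 33.9, a mean of 34.0 CPM ± 11.5 (SD, n = 10), and its neuron libraries from 9.57 to 21.4 CPM with a median of 13.8, a mean of 14.9 CPM ± 4.48 (SD, n = 10). Microglia and astrocytes overlapped over most of their range, and microglia were higher in 5 of 10 libraries (exact permutation p = 0.348, adjusted p = 0.859). The neuron and astrocyte ranges overlapped at their ends, but neurons were lower in 10 of 10 libraries, by 2.28-fold, a log2 fold change of -1.19 with an SE of 0.17 (edgeR, adjusted p = 1.2e-09). It was -1.26 within the biol rep and -1.18 within the female libraries. The neuron value pools regional groups that differed, from a mean of 3.34 CPM in *C1ql3* to 41.0 CPM in *Nwd2* neurons. Those means were scaled within their own comparison, and the difference from astrocytes was not tested for each group.

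Against the mean of the other types *Adrb1* was called higher in microglia, by 2.52 with an SE of 0.27 (edgeR, adjusted p = 3e-13), where 18.2% of all genes were, in astrocytes, by 2.21 with an SE of 0.22 (adjusted p = 4.8e-15), in ependymal cells, by 0.98 with an SE of 0.37 (adjusted p = 0.0296), and in neurons, by 0.85 with an SE of 0.24 (adjusted p = 0.00144). The ependymal call was lost without biol rep replicate 1 (adjusted p = 0.0686) and without biol rep replicate 3 (adjusted p = 0.337). The neuron value is against a mean on the log2 scale in which oligodendrocytes, endothelial cells, fibroblasts and OPCs held 1.98 to 5.17 CPM, and in CPM neurons exceeded the mean of the other types in 4 of 10 libraries. Its adjusted p was 0.0737 within the biol rep libraries and 0.0529 with nuclei thinned to 2000 UMIs. At that depth an *Adrb1* UMI was found in 9.44% of microglia, 6.20% of astrocytes, 2.30% of neurons and 0.565% of oligodendrocytes.

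For the receptors that were lower in neurons than in astrocytes, the neuron level as a share of the astrocyte level was 10.4% for *Adra1a*, 6.98% for *Adra2a* and 43.7% for *Adrb1*. The same share was 0.920% for *Agt*, 1.16% for *Aqp4*, 0.794% for *Gja1* and 0.718% for *Slc1a3*. The part of free astrocyte RNA in the neuron levels was not tested. In all, 20 of the 40 comparisons of a tested receptor in 1 cell type with the mean of the others were called. Those of the same receptor are not independent. Of all genes, 36.4% were called in either direction in astrocytes, 59.1% in neurons, 23.5% in OPCs, 35.5% in oligodendrocytes, 34.6% in microglia, 34.9% in ependymal cells, 14.2% in fibroblasts and 23.6% in endothelial cells.

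**Figure D1:**
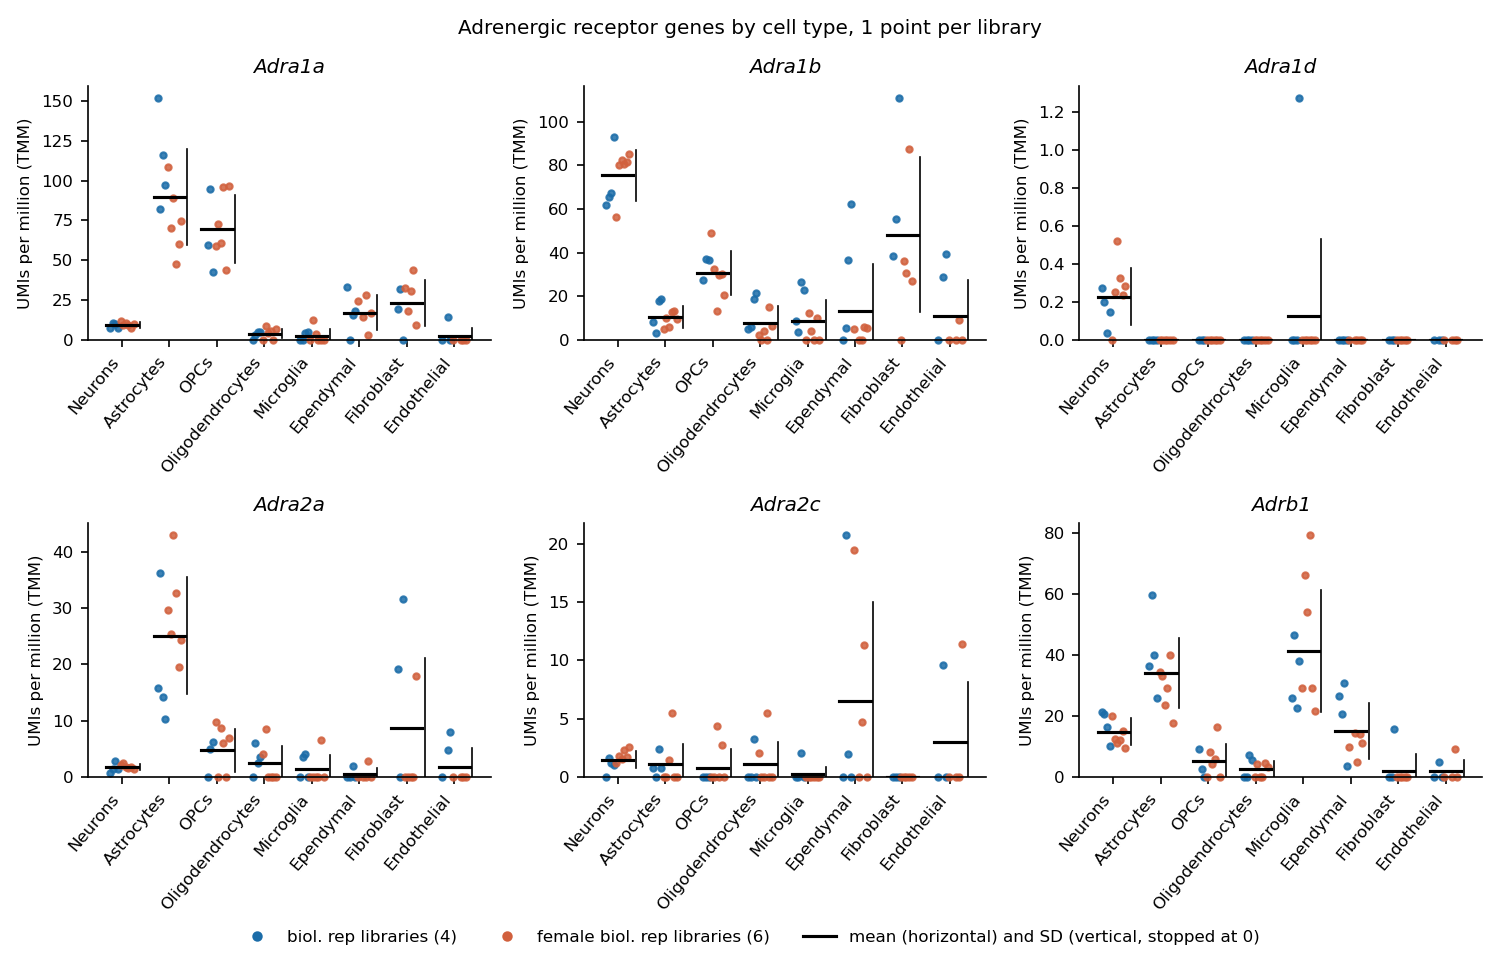
Level of each of the 6 adrenergic receptors in the 8 deposited cell types, in CPM on a linear axis of its own per receptor. Points are libraries, coloured by biol rep and female biol rep, horizontal bars are means and vertical lines the SD: *Adra1b* is highest in neurons (mean 75.4 CPM), *Adra1a* in astrocytes and OPCs (89.7 and 69.4 CPM), *Adra2a* in astrocytes (25.1 CPM) and *Adrb1* in microglia and astrocytes (41.3 and 34.0 CPM).

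For comparison with genes of the family that are not among the 6, *Adra2b*, an alpha-2 receptor, had 645 of its 697 UMIs in neurons, at 6.93 CPM. *Adrb3*, a beta receptor, had 40 of its 68 UMIs in ependymal cells, at 21.6 CPM. Among neurons 49.5% of nuclei held a UMI of at least 1 of the 6 receptors, as did 32.0% of astrocytes, 35.5% of OPCs, 13.2% of microglia and 5.56% of oligodendrocytes, at unequal depths per nucleus.

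The next question was whether the receptors differed among neurons of different regions. The marker split placed 5635 neurons (54.1%) with *C1ql3*, the study's marker of the paraventricular thalamus, 2175 (20.9%) with *Adarb2*, of the mediodorsal thalamus, 1086 (10.4%) with *Nwd2*, of the habenula, and 544 (5.23%) with *Gad2*, of GABAergic neurons, while 970 (9.32%) held no UMI of the 4. The split used no receptor. All 15 regional markers were highest in the group of their region, which for the 4 splitting genes follows from the split itself. Of the 544 *Gad2* neurons, 191 belonged to the deposited cluster led by *Gad2*, Neurons (5). More of them lay in the clusters led by *C1ql3*, with 101 in Neurons (1), 71 in Neurons (2) and 95 in Neurons (4). The median depth was 12158 UMIs in the *C1ql3* group, 12399 in *Adarb2*, 10482.5 in *Gad2* and 7403 in *Nwd2*.

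*Adra1b* and *Adrb1* had different orders across the groups, with *Adra1b* lowest and *Adrb1* highest in *Nwd2* neurons and both high in *Adarb2* neurons. *Adra1a*, *Adra1b* and *Adrb1* passed the filter, and 10 of their 12 comparisons with the mean of the other groups were called. The comparisons of the same receptor share their group levels, so these calls are not independent. A low level in any group makes the other groups come out higher. Of the 15913 genes tested, 12.2% were called higher and 11.7% lower in *Adarb2* neurons, 11.5% and 5.93% in *C1ql3* neurons, 5.66% and 2.56% in *Gad2* neurons, and 15.3% and 19.2% in *Nwd2* neurons.

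*Adra1b* ranged from 73.4 to 110.1 CPM in *Adarb2* neurons with a median of 87.2 (mean 87.3 CPM ± 12.4, SD, n = 10), from 57.1 to 77.3 CPM in *C1ql3* neurons with a median of 67.4 (mean 68.1 CPM ± 6.80), from 42.1 to 95.1 CPM in *Gad2* neurons with a median of 61.1 (mean 63.8 CPM ± 19.4) and from 1.23 to 25.1 CPM in *Nwd2* neurons with a median of 11.1 (mean 12.8 CPM ± 7.72). The *Nwd2* libraries lay below every library of the other 3 groups, which overlapped among themselves. Against the mean of the other groups *Nwd2* neurons were lower by a log2 fold change of -2.62 with an SE of 0.16 (edgeR, adjusted p = 2.5e-19), which was -2.47 within the biol rep and -2.75 within the female libraries. *Adarb2* neurons were higher by 1.21 with an SE of 0.10 (adjusted p = 1.3e-14; 1.06 and 1.33 within the library groups), and *C1ql3* neurons by 0.73 with an SE of 0.10 (adjusted p = 1.6e-08; 0.64 and 0.82). The means that these 2 groups were set against include the low *Nwd2* level.

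*Adra1b* in *Gad2* neurons depended on how those neurons were defined. It was called higher than the mean of the others by 0.68 with an SE of 0.13 (edgeR, adjusted p = 0.00012), but higher in 6 of 10 libraries, and was not called under a stricter split that asked the leading marker to be at least 2 times the next (0.35, adjusted p = 0.197). With the deposited clusters grouped by their leading marker it was lower by -0.95 with an SE of 0.16 (adjusted p = 5.2e-06). In the order of levels, *Adarb2* exceeded *C1ql3* neurons in 9 of 10 libraries (exact permutation p = 0.0039, adjusted p = 0.0234 over 18 pairs), *C1ql3* and *Gad2* neurons did not differ beyond their spread (higher in 7 of 10 libraries, exact p = 0.506), and *Gad2* exceeded *Nwd2* neurons in 10 of 10 libraries (exact p = 0.0020, the smallest that 10 libraries can give, adjusted p = 0.0176). With nuclei thinned to 2000 UMIs, 11.4% ± 2.79 (SD, n = 10) of *Adarb2* and 11.8% ± 1.48 of *C1ql3* neurons held an *Adra1b* UMI. The share was 13.0% ± 6.48 in *Gad2* and 2.05% ± 2.27 in *Nwd2* neurons, so *Adarb2* neurons did not lead in this measure.

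*Adrb1* was high in *Nwd2* and *Adarb2* neurons and low in *C1ql3* neurons. It ranged from 16.8 to 57.2 CPM in *Nwd2* neurons with a median of 41.3 (mean 41.0 CPM ± 12.2, SD, n = 10), from 15.8 to 44.5 CPM in *Adarb2* neurons with a median of 22.9 (mean 26.4 CPM ± 9.07), from 0 to 16.1 CPM in *Gad2* neurons with a median of 6.00 (mean 7.10 CPM ± 4.65) and from 2.09 to 5.23 CPM in *C1ql3* neurons with a median of 2.95 (mean 3.34 CPM ± 1.07). No *C1ql3* library reached a library of the *Nwd2* or *Adarb2* groups. *Nwd2* neurons were higher than the mean of the others by 2.34 with an SE of 0.13 (edgeR, adjusted p = 4e-20; 2.46 and 2.23 within the biol rep and female libraries), *Adarb2* neurons were higher by 1.47 with an SE of 0.12 (adjusted p = 2e-14; 1.64 and 1.03), and *C1ql3* neurons were lower by -2.62 with an SE of 0.16 (adjusted p = 6.4e-18; -2.86 and -2.27).

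In *Gad2* neurons *Adrb1* was lower by -1.19 with an SE of 0.22 (edgeR, adjusted p = 6.9e-05), in 10 of 10 libraries, but the call was lost within the female libraries (-0.99, adjusted p = 0.154) and with nuclei thinned to 2000 UMIs (-0.98, adjusted p = 0.280). *Nwd2* exceeded *Adarb2* neurons in 9 of 10 libraries (exact permutation p = 0.0059, adjusted p = 0.0264) and *Adarb2* exceeded *Gad2* neurons in 10 of 10 (adjusted exact p = 0.0176), while *Gad2* exceeded *C1ql3* neurons in 9 of 10 at an adjusted exact p of 0.0562. Since *Adrb1* was also high in microglia, the summed microglia markers *Cx3cr1*, *P2ry12* and *Csf1r* were read in the same nuclei. They lay at 83.3 CPM in *Nwd2*, 79.7 in *Adarb2*, 78.7 in *C1ql3* and 72.0 in *Gad2* neurons, against 4877 CPM in microglia, and their part in the *Adrb1* result was not tested. Thinned to 2000 UMIs, an *Adrb1* UMI was found in 7.61% of *Nwd2*, 4.21% of *Adarb2*, 1.53% of *Gad2* and 0.516% of *C1ql3* neurons, and in 0.565% of oligodendrocytes.

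*Adra1a*, low in neurons as a whole, was highest in *Gad2* neurons. It ranged from 3.95 to 36.6 CPM there with a median of 16.1 (mean 18.04 CPM ± 11.1, SD, n = 10) and lay at 7.97 CPM ± 3.12 in *Nwd2*, 7.54 CPM ± 2.05 in *C1ql3* and 4.33 CPM ± 3.69 in *Adarb2* neurons, with ranges that overlapped. It was called higher in *Gad2* neurons, by 1.59 with an SE of 0.24 (edgeR, adjusted p = 2.5e-06; 1.81 within the biol rep libraries and 1.20 within the female libraries, where the adjusted p was 0.121), and lower in *Adarb2* neurons, by -1.40 with an SE of 0.23 (adjusted p = 1.9e-06; -1.72 and -0.97). It was not called in *C1ql3* (-0.31, adjusted p = 0.203) or *Nwd2* neurons (0.12, adjusted p = 0.729). *Gad2* exceeded *Nwd2* neurons in 9 of 10 libraries, at an exact permutation p of 0.0215 that was 0.0645 after adjustment.

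The scarce receptors did not pass the filter here, and values without it rest on few UMIs. *Adra1d* had 11 of its UMIs in *Adarb2* neurons (log2 fold change 2.39, edgeR adjusted p = 0.0254), 2 in *C1ql3*, 1 in *Gad2* and 0 in *Nwd2* neurons. *Adra2a* lay at 2.82 CPM in *Gad2* neurons (1.24, adjusted p = 0.0396) and 0.58 CPM in *Adarb2* neurons (-1.38, adjusted p = 0.00143). *Adra2c* lay at 2.81 CPM in *Gad2* and 0.61 CPM in *Adarb2* neurons (-1.56, adjusted p = 0.00595 in the latter).

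**Figure D2:**
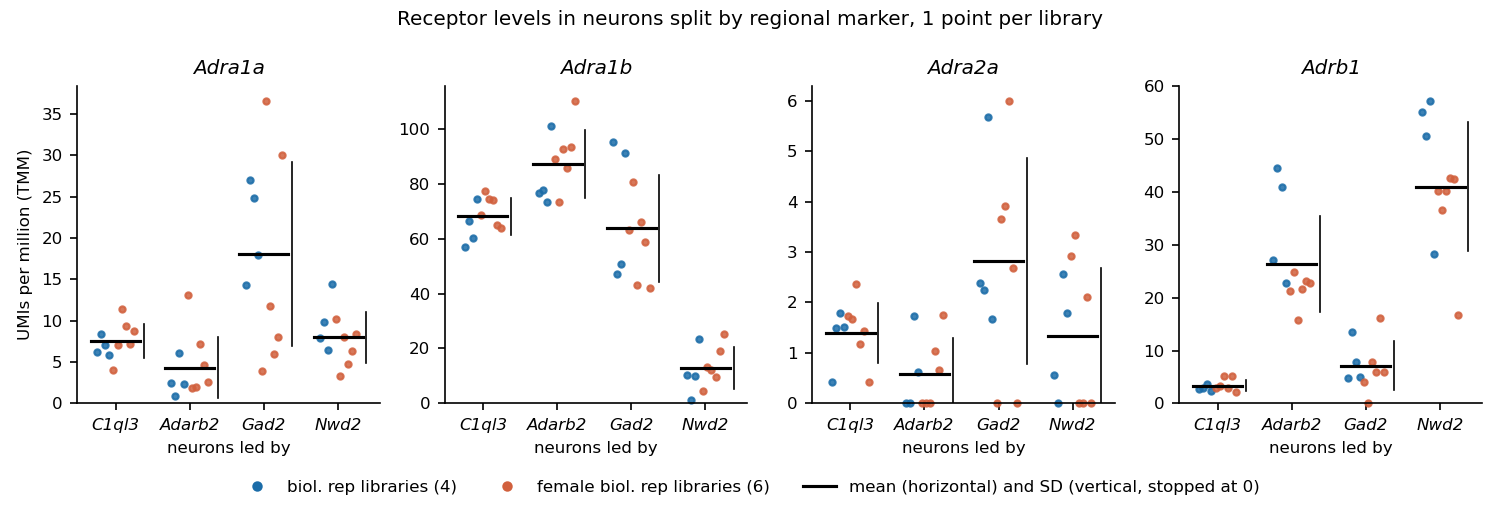
Level of *Adra1a*, *Adra1b*, *Adra2a* and *Adrb1* in neurons split by *C1ql3*, *Adarb2*, *Gad2* and *Nwd2*, in CPM on a linear axis of its own per receptor, with 1 point per library coloured by library group, horizontal bars for means and vertical lines for the SD. *Adra1b* is lowest in *Nwd2* neurons (12.8 CPM), where *Adrb1* is highest (41.0 CPM), and *Adrb1* is lowest in *C1ql3* neurons (3.34 CPM).

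*Adra1b* and *Adrb1* were also read in the same nuclei, as a description that depends on depth. Both had a UMI in 333 of 2175 *Adarb2* neurons (15.3%), where 1099 held *Adra1b* and 502 held *Adrb1*. In *Nwd2* neurons 19 of 1086 (1.75%) held both, with 85 holding *Adra1b* and 289 *Adrb1*, and in *C1ql3* neurons 101 of 5635 held both, with 2502 and 192.

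The 8 deposited neuron clusters gave a finer view. *C1ql3* led Neurons (1), (2) and (4), *Adarb2* led (3), (7) and (8), *Gad2* led (5) and *Nwd2* led (6). In Neurons (7) and (8) *Adarb2* led only as the least low of the 4 markers, at 342 and 349 CPM over all their nuclei against 1765 CPM in Neurons (3), and in both clusters all 4 markers had a negative log2 ratio to the mean of the other clusters (-0.16 and -0.13 for *Adarb2*). Clusters with the same leading marker held different mean levels: *Adra1a* was high in Neurons (4) and not in the other *C1ql3* clusters, and *Adrb1* was higher in Neurons (3) than in Neurons (7) and (8). Of the 24 comparisons of *Adra1a*, *Adra1b* and *Adrb1* in a cluster with the mean of the other clusters 20 were called. Those of the same receptor are not independent. Of the 14454 genes tested 14.5% were called in Neurons (1), 13.4% in (2), 29.5% in (3), 23.5% in (4), 19.0% in (5), 42.3% in (6), 11.0% in (7) and 13.5% in (8).

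*Adra1a* reached 24.1 CPM ± 10.2 (SD, n = 10) in Neurons (5), with libraries from 8.25 to 38.1 CPM, and 21.7 CPM ± 9.17 in Neurons (4), with libraries from 12.8 to 45.9 CPM. The other 6 clusters had means of 1.60 to 8.30 CPM. Neurons (5) and (4) did not differ beyond their spread (higher in 7 of 10 libraries, exact permutation p = 0.678), and Neurons (4) exceeded the next cluster, Neurons (6), in 10 of 10 libraries (adjusted exact p = 0.0410 over 42 pairs). *Adra1a* was higher than the mean of the other clusters in Neurons (5) by 2.56 with an SE of 0.20 (edgeR, adjusted p = 5.5e-20), higher in Neurons (4) by 2.24 with an SE of 0.18 (adjusted p = 1.6e-19) and lower in Neurons (3) by -2.07 with an SE of 0.34 (adjusted p = 1.2e-07). The summed astrocyte markers lay at 72.9 CPM in Neurons (5), 51.0 in Neurons (4) and 34.2 to 65.3 in the other neuron clusters, against 5589 CPM in Astrocytes (1), and their part in this result was not tested.

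*Adra1b* was highest in Neurons (3), at 104.1 CPM ± 18.5 (SD, n = 10), and Neurons (4), at 96.1 CPM ± 14.3, which could not be ordered (exact permutation p = 0.262). It lay at 83.3 CPM in Neurons (8), 67.0 in (1), 52.2 in (2) and 50.7 in (7), and then dropped to 17.4 CPM ± 6.16 in Neurons (5) and 8.58 CPM ± 5.56 in Neurons (6). Neurons (7) exceeded Neurons (5) in 10 of 10 libraries (adjusted exact p = 0.0410). Against the mean of the other clusters Neurons (3) were higher by 1.39 with an SE of 0.08 (edgeR, adjusted p = 1.2e-28), Neurons (4) by 1.28 with an SE of 0.09 (adjusted p = 1.1e-24) and Neurons (8) by 1.01 with an SE of 0.10 (adjusted p = 5.6e-14), while Neurons (5) were lower by -1.55 with an SE of 0.15 (adjusted p = 3.6e-15) and Neurons (6) by -3.15 with an SE of 0.19 (adjusted p = 2.5e-28). With nuclei thinned to 2000 UMIs the call in Neurons (8) was lost (0.49 with an SE of 0.20, edgeR, adjusted p = 0.0979). The low level in Neurons (5), led by *Gad2*, stands beside the 63.8 CPM in neurons assigned to *Gad2* nucleus by nucleus.

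*Adrb1* was highest in Neurons (6), at 44.4 CPM ± 14.8 (SD, n = 10), followed by 35.2 CPM ± 13.7 in Neurons (3), 17.6 in (8) and 13.1 in (7). It lay at 7.96 CPM in Neurons (5) and 1.43 to 2.80 CPM in the 3 *C1ql3* clusters. Neurons (6) exceeded Neurons (3) in 8 of 10 libraries (exact permutation p = 0.0273, adjusted p = 0.144), so these neighbours were not separated after adjustment. The log2 fold change was 2.89 with an SE of 0.14 in Neurons (6) (edgeR, adjusted p = 2e-34), 2.40 with an SE of 0.13 in Neurons (3) (adjusted p = 8e-32) and -2.88 with an SE of 0.28 in Neurons (4) (adjusted p = 2.1e-15). Neurons (4) lay near the floor, at 1.43 CPM with libraries from 0 to 6.80 CPM. They were not separated from Neurons (1), at 2.21 CPM (exact permutation p = 0.385).

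*Adra2a* and *Adra2c* did not pass the filter among the clusters. Without it *Adra2a* was higher in Neurons (5), at 7.23 CPM ± 4.55 (SD, n = 10; log2 fold change 3.10, edgeR adjusted p = 1.2e-23), and in Neurons (4), at 3.60 CPM ± 1.80 (1.83, adjusted p = 4.3e-08), the clusters that were also high in *Adra1a*. The other 6 clusters had 0.14 to 0.81 CPM. *Adra2c* was higher in Neurons (5), at 3.67 CPM ± 2.64 (2.05, adjusted p = 6.7e-06), from 25 UMIs.

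**Figure D3:**
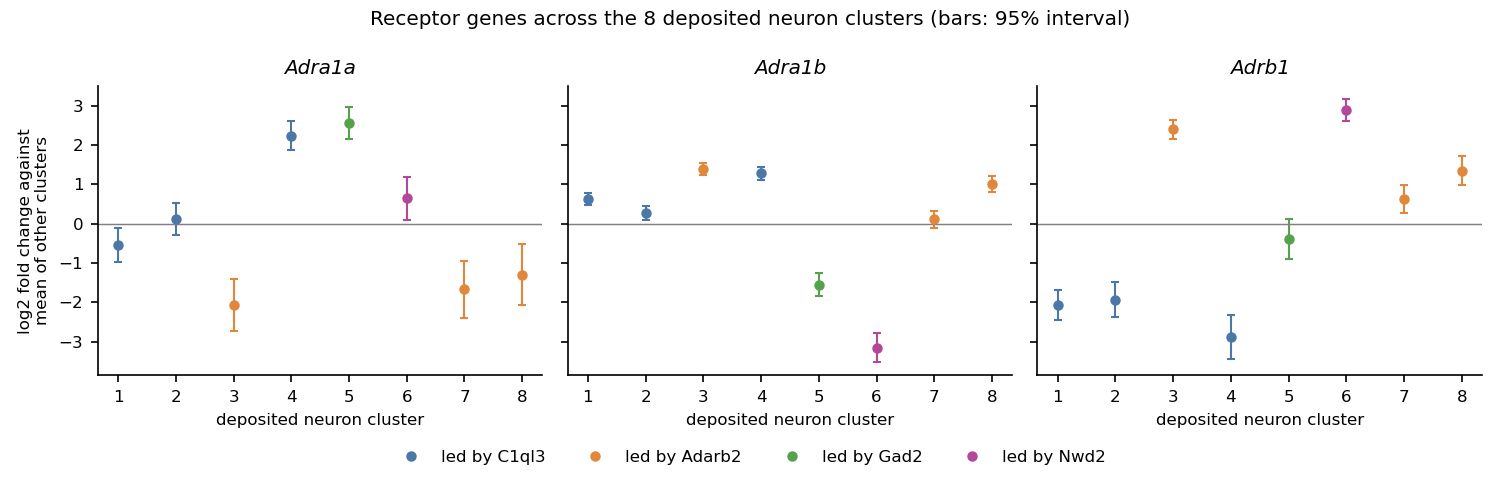
Log2 fold change of *Adra1a*, *Adra1b* and *Adrb1* in each of the 8 deposited neuron clusters against the mean of the other clusters, from edgeR over 10 libraries, with 95% intervals and coloured by the leading marker of the cluster. *Adra1a* stands out in Neurons (4) and (5) (2.24 and 2.56), *Adra1b* is low in Neurons (5) and (6) (-1.55 and -3.15), and *Adrb1* is high in Neurons (3) and (6) (2.40 and 2.89).

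Within astrocytes, the deposited clusters Astrocytes (1), of 4591 nuclei, and Astrocytes (2), of 711, were compared. Both reached 10 nuclei in 9 libraries, which held 703 of the Astrocytes (2) nuclei. *Adra2a* lay at 18.9 CPM ± 7.85 (SD, n = 10) in Astrocytes (1) and 37.5 CPM ± 21.8 (SD, n = 9) in Astrocytes (2), and *Adrb1* at 23.8 CPM ± 13.4 and 36.3 CPM ± 15.2, with overlapping ranges in both. *Adra2a* was called higher in Astrocytes (2), by 0.83 with an SE of 0.29 (edgeR, adjusted p = 0.0279, higher in 7 of 9 libraries), as was *Adrb1*, by 0.79 with an SE of 0.25 (adjusted p = 0.0158, higher in 6 of 9), where 14.8% of 11658 genes were called in either direction. Neither call held without the library block (adjusted p = 0.0535 for *Adra2a* and 0.196 for *Adrb1*) or in DESeq2 (0.0755 and 0.0579).

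Both astrocyte cluster calls also rested on single libraries. For *Adra2a* the adjusted p was 0.0958 without biol rep replicate 2, 0.0736 without biol rep replicate 4 and 0.0695 without female replicate 6. For *Adrb1* it was 0.0691 without female replicate 1, 0.0530 without female replicate 4 and 0.136 without female replicate 5, and the difference was -0.44 with an SE of 0.54 within the biol rep libraries (adjusted p = 0.774) and 1.35 within the female libraries (adjusted p = 4.8e-05). The median Astrocytes (2) nucleus held 1295.5 UMIs in the biol rep and 3846 in the female libraries, and the part of depth was not tested. *Adra1a* (-0.16, adjusted p = 0.587) and *Adra1b* (-1.17, adjusted p = 0.0819) were not called between the clusters, although *Adra1b* was without biol rep replicate 4 (-1.39, adjusted p = 0.0454). The summed astrocyte markers were higher in Astrocytes (2), at 8484 CPM against 5589 CPM, and their part in these differences was not tested.

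The remaining comparison was between the female and the biol rep libraries, within neurons and within astrocytes. Depth goes with that grouping, since the median library held 6122012 UMIs in the female and 26418930 in the biol rep group, and 1555 genes with at least 50 UMIs in the biol rep libraries had 0 in the female libraries and 509 the reverse, so sex, depth and gene annotation cannot be told apart. None of the 7 receptor comparisons was called in edgeR, where 17.2% of 16895 genes were called in neurons and 15.8% of 11780 in astrocytes, 2 had an unadjusted p under 0.05, and DESeq2 called 0. *Adra1a* in astrocytes lay at 75.0 CPM ± 21.6 (SD, n = 6) in female and 112 CPM ± 30.2 (SD, n = 4) in biol rep libraries, a log2 fold change of -0.46 (adjusted p = 0.158). *Adra2a* in astrocytes was 0.89 higher in female libraries on the log2 scale (adjusted p = 0.109), which became 1.29 with an adjusted p of 0.00307 without biol rep replicate 2.

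The neuron-astrocyte difference itself was compared between the library groups by an interaction term. None of the 5 receptors tested was called in edgeR, where 1.44% of 17674 genes were, 1 had an unadjusted p under 0.05, and DESeq2 called 0. That 1 was *Adra1a*, whose neuron minus astrocyte log2 difference was less negative in the female libraries, by 0.66 with an SE of 0.21 (adjusted p = 0.113), and which was called with no filter on low counts (0.82, adjusted p = 0.00638), with nuclei over 1000 genes (0.83, adjusted p = 0.0401) and without biol rep replicate 2 (0.76, adjusted p = 0.0400).

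The genes of noradrenaline handling and of the 3 receptor pathways were read in the neuron-astrocyte comparison. For the synthesis of noradrenaline *Dbh* had 4 UMIs and *Th* 26 in all nuclei, and *Slc6a2*, its transporter, had 12. Of 9 release and uptake genes 6 were tested, 3 were higher in neurons and 0 lower, with a median log2 fold change of 0.89 against 0.10 over all genes, of which 33.6% were called higher and 26.8% lower. The gene with the largest increase was *Slc29a4*, a low-affinity monoamine transporter, at 9.18 CPM in neurons and 0.982 CPM in astrocytes (3.15, SE 0.30), and *Maoa*, a monoamine-degrading enzyme, had the lowest value and was not called (-0.33, SE 0.13).

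Of 12 genes of the Gq arm, through which alpha-1 receptors act, 4 were higher in neurons, near the 33.6% of all genes, and 6 were lower, beside 26.8% of all genes, with a median of -0.44. *Itpr2*, an inositol trisphosphate receptor of the endoplasmic reticulum, lay at 257 CPM in astrocytes and 10.4 CPM in neurons (-4.58, SE 0.23), and *Gna14*, a G alpha subunit of the Gq class, was higher in neurons (2.01, SE 0.44). Of 9 genes of the Gi arm, used by alpha-2 receptors, 7 were higher in neurons and 1 lower, beside the same shares of 33.6% and 26.8% of all genes, with a median of 1.67. *Kcnj6*, a G protein-gated potassium channel, had the largest increase (4.14, SE 0.22) and *Gnai2*, a Gi subunit, the one decrease (-1.88, SE 0.14). Of 12 tested genes of the Gs arm, used by beta receptors, 6 were higher and 2 lower, beside 33.6% and 26.8% of all genes, with a median of 0.65. There the adenylyl cyclase *Adcy5* was higher in neurons (2.45, SE 0.18) and *Adcy2* lower (-2.88, SE 0.18). Among 6 regulators of receptor signalling 1 was higher and 2 lower, beside the same shares of all genes, with a median of -0.26. *Grk3*, a receptor kinase, lay at 825 CPM in astrocytes and 101 CPM in neurons (-3.01, SE 0.15), and *Arrb2*, a beta-arrestin, was higher in neurons (1.04, SE 0.21).

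**Figure D4:**
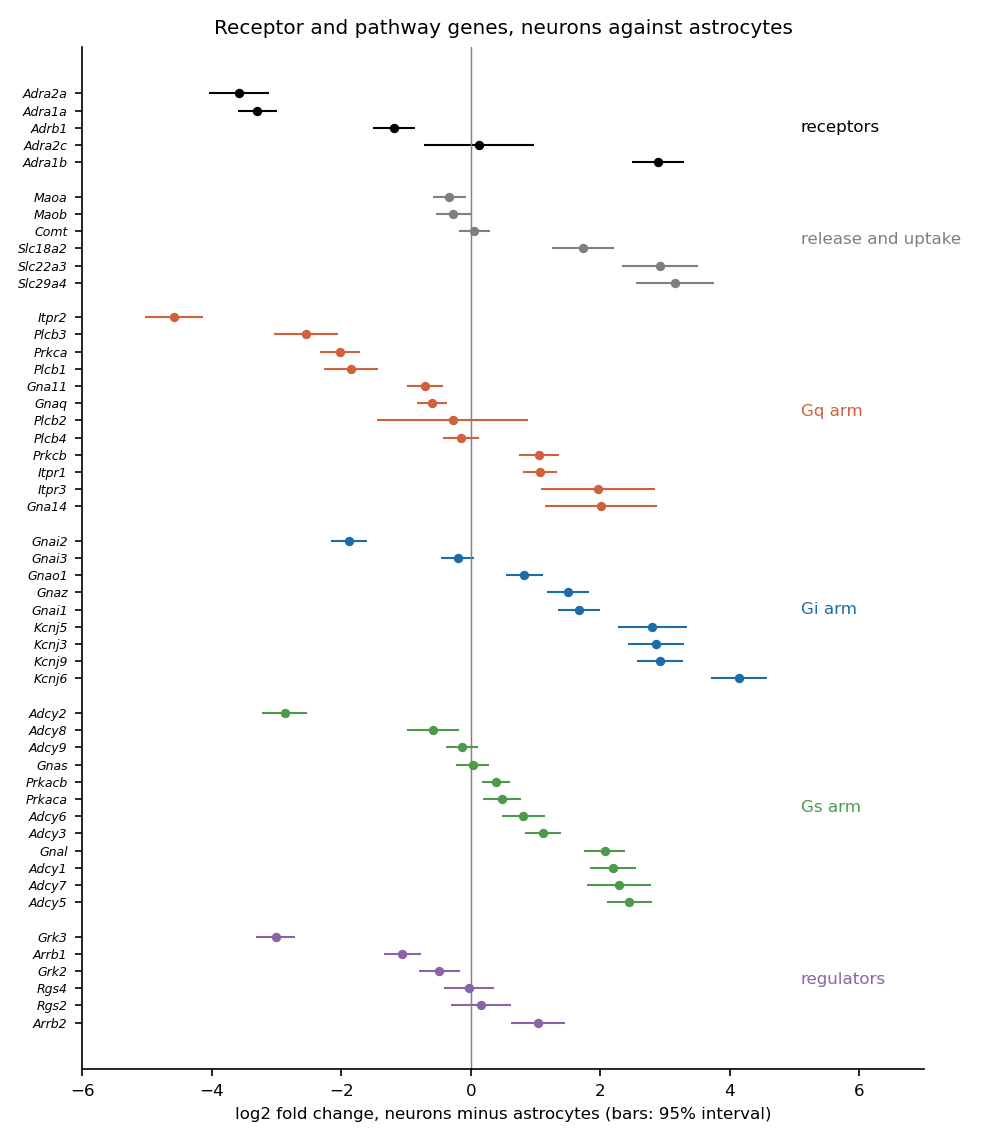
Log2 fold change of neurons minus astrocytes for the 5 receptors tested and for the tested genes of the 5 pathway lists, 1 colour per list, with 95% intervals as bars. The Gi arm lies mostly above 0 (median 1.67) and the Gq arm on both sides (median -0.44), with *Itpr2* at -4.58.

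In *Nwd2* neurons, the group with the highest *Adrb1*, 2 of the 12 tested genes of the Gs arm were higher than in the other groups and 5 lower, and 0 of the 9 of the Gi arm were higher and 5 lower, where 15.3% of all genes were called higher and 19.2% lower. *Adarb2* neurons, also high in *Adrb1*, had the other balance, with 4 of the 12 Gs arm genes higher and 1 lower. Of the 9 Gi arm genes 3 were higher there and 2 lower, where 12.2% of all genes were called higher and 11.7% lower. In *C1ql3* neurons 4 of 6 tested release and uptake genes were higher and 1 lower, where 11.5% of all genes were called higher and 5.93% lower.

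Finally, the genes whose levels followed each receptor most closely were listed over the 16 deposited clusters, among 17548 genes, by Pearson's r of log2(mean CPM + 1). These are descriptions over clusters that share libraries. *Adra1a* was most like *E130311K13Rik* (0.926), *Hibadh* (0.910) and *Atp7b* (0.879), *Adra1b* like *Prmt8* (0.938), *Dpys* (0.932) and *Gm10814* (0.927), and *Adra2a* like *Slc25a29* (0.899), *Ikbip* (0.894) and *Lrpap1* (0.892). *Adra2c* was most like *Dxo* (0.876), *Pvalb* (0.851) and *Katnal1* (0.847), which were all highest in ependymal cells. It had 168 UMIs in all and 14 in ependymal cells, so its values rest on few UMIs. *Adrb1* was most like *Glrx* (0.792), *Zswim8* (0.784) and *Nop2* (0.781). For *Adra1d*, which stayed under 5 CPM in every cluster, the closest were *Ntf3* (0.909), *B3glct* (0.879) and *Gm46102* (0.871).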

How the data were processed

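Nuclei of 10 libraries were sequenced with droplet barcodes. Per the labels and the deposited matrix, the authors made UMI counts per gene and nucleus with Cell Ranger (6.1.1 in the submitters' processing notes, build mm10; the study's methods name another version), and per the methods kept nuclei with at least 200 genes and at most 5% mitochondrial reads and clustered them on 18 principal components at a resolution of 0.7. The deposited counts are raw, whole numbers; the deposited cluster names were used and 22 other metadata columns were not. No doublet caller was run here.

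Counts were summed per library and class, and a sum needed at least 10 nuclei. Genes with at least 10 UMIs in at least 3 sums of 1 class were tested in edgeR 4.0.16 (R 4.3.3; TMM, quasi-likelihood test) with library as block, since the classes of 1 library come from the same tissue sample; comparisons between library groups had no block. Benjamini-Hochberg adjustment ran over all genes tested. Calls needed an adjusted p under 0.05 and, except between library groups, a log2 fold change beyond 0.5. CPM values were scaled by TMM within each comparison. "Against the mean of the others" is a mean on the log2 scale. Such comparisons of the same receptor share their levels, so counts of calls are not counts of independent results. Neurons were split by dividing UMIs per 10000 of each of the 4 markers by its 99th percentile over neurons and taking the highest marker. Neighbours in the order of levels were compared by an exact two-sided sign-flip permutation test over libraries. Named genes were the 6 receptors, other family genes (not all are reported here), the splitting markers, the largest increase and decrease of each pathway list and the 3 genes most like each receptor. Members and lists were chosen with earlier results of these data known. Alternatives were DESeq2 1.42.0, RLE size factors, other filters, no block, nuclei over 1000 genes, thinning, each library group alone, other splits and leaving out each library. Tested on simulated data for neurons minus astrocytes over 16782 genes, the edgeR step recovered 88% of 100 genes changed 2-fold and 91% of 100 changed 4-fold, with 10 false calls. That simulation held neurons and astrocytes alone, and its changed genes had at least 100 expected UMIs, so recovery of scarcer genes was not measured. Its changes were balanced in direction, all other genes were equal in the 2 cell types, and no library effect was drawn. In the real comparison 60.4% of genes were called, so false calls under such broad change were not measured. Python 3.11.15 with numpy 2.4.6, scipy 1.17.1, pandas 2.3.3 and matplotlib 3.10.9 was used. Limits on shares of nuclei cover counting error only. The 95% intervals of log2 fold changes come from the SE of the edgeR fit. It includes the spread between libraries that is left after the library block, where a block was used.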

Additional observations from a re-analysis of the deposited data

Results flagged for a closer look

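In 46 groups of 4 to 6 libraries in which a receptor had enough UMIs, the highest or lowest library was compared with the others by Dixon's gap over range, which chance passes in about 1 of 20 groups. There were 3 such libraries. *Adra1b* in neurons of female replicate 1 was lowest at 56.3 CPM, from 239 UMIs, with the other female libraries at 80.2 to 85.05 CPM. *Adra1b* in *Adarb2* neurons of biol rep replicate 4 was highest at 101 CPM, from 972 UMIs, with the other biol rep libraries at 73.4 to 77.7 CPM. *Adrb1* in *Nwd2* neurons of female replicate 6 was lowest at 16.8 CPM, from 2 UMIs, with the other female libraries at 36.7 to 42.6 CPM.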

How the results depend on the processing

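Single comparisons were followed for 10 of the 40 of a cell type with the mean of the others and 16 of the 24 among neuron clusters. In the other sets all tested comparisons were followed. Over these 59 receptor comparisons and 1127 values under alternatives, 1069 kept their direction and side of the threshold, 36 lost the call, 5 gained one and 17 changed sign. All 91 values for neurons minus astrocytes kept both, although with edgeR's own filter (filterByExpr) 2 receptors were called there since the others were not tested. Among cell types against the mean of the others, 20 calls became 12 with filterByExpr, which tested 16 of 40 comparisons, 11 within the biol rep libraries, 11 within the female libraries, 10 with thinning to 2000 UMIs, and 15 to 19 when each library was left out. Among marker-defined neuron groups the 10 calls became 7 within the female libraries, 7 with thinning, which tested 8 of 12 comparisons, and 9 under the stricter split, and stayed at 10 without any 1 library. Among neuron clusters 20 calls became 11 with thinning, which tested 16 comparisons, and 17 to 20 without each library. Between astrocyte clusters 2 calls became 0 in DESeq2, 0 with filterByExpr, 0 within the biol rep libraries, 0 with thinning, 1 with no filter, 1 with nuclei over 1000 genes, 1 within the female libraries and 1 to 2 without each library. Between library groups 0 calls became 0 to 1 without each library, and for the interaction 1 with no filter, 1 with nuclei over 1000 genes and 0 to 1 without each library. Where not stated, the cause was not tested.

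Without the replicate block, the calls were 4 for neurons minus astrocytes, 19 among cell types, 10 among marker-defined groups, 17 among neuron clusters, 0 between astrocyte clusters and 0 for the interaction.

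*Adra1a* changed sign in *C1ql3* neurons to 0.11 with the deposited clusters grouped by leading marker, in *Nwd2* neurons to -0.095 within the female libraries and to -0.096 without biol rep replicate 4 (-0.096 to 0.42 without each library), and in Astrocytes (2) minus (1) to 0.019 within the female libraries. *Adra1b* in *Gad2* neurons became -0.95 with the deposited clusters, and *Adrb1* in Astrocytes (2) minus (1) -0.44 within the biol rep libraries. The *Adrb1* interaction, not called in any fit, was 0.050 in DESeq2, 0.048 with RLE size factors, 0.11 with filterByExpr, 0.13 with no filter, 0.062 with nuclei over 1000 genes, 0.089 with thinning and -0.11 to 0.26 without each library. Apart from the fits that left out a library, each of these values was smaller than its SE, which ran from 0.21 to 0.32. This interaction gave 11 of the 17 sign changes. *Adra1d* and *Adra2c* had 17 and 168 UMIs in all, so small differences in them were not detectable at this depth.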
